A study of Danio rerio with 9 samples.

Results

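The Polycomb CBX genes encode chromodomain proteins of the canonical Polycomb repressive complex PRC1. The zebrafish genes cbx2, cbx6a, cbx6b, cbx7a, cbx7b, cbx8a and cbx8b belong to this family. These 7 genes were looked up by symbol among 32520 gene IDs counted in zebrafish (Danio rerio) embryos, and 7 IDs were found. The names table gave 4 of them under their own fish symbol. It gave cbx7b as CBX7, and cbx8a and cbx8b as 2 IDs that share the symbol CBX8, so which CBX8 ID is cbx8a is not known here. The set was chosen by the measured rise of cbx7a in homozygous npc2 mutants, and its other genes joined it by name. The changes of cbx7a in comparisons that hold homozygous libraries are therefore described without a test. The test of cbx7a between heterozygous and wild-type embryos shares the wild-type pools of that rise and is no separate check.

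Polyadenylated RNA was sequenced from whole embryos at 30 hours post fertilisation, in 3 pools of 30 embryos for each of 3 genotypes. Wild-type embryos were npc2+/+. Heterozygous embryos, Mnpc2+/m, came from mutant mothers and had 1 mutant copy, and homozygous embryos, MZnpc2m/m, lacked both maternal and zygotic wild-type npc2. The mutant genotypes were siblings sorted by phenotype, while the wild-type pools were bred separately, with npc2+/+ siblings of the mutant parents, so that mother, clutch and genotype cannot be told apart in comparisons with wild type. The labels call the pools separate without naming clutches or days, and p-values therefore measure the spread between these pools. npc2 encodes a soluble lysosomal protein that carries cholesterol. Its abundant ID, NPC2 (ENSDARG00000090912), was at 256 to 278 CPM in wild type, 142 to 146 in heterozygous and 32.6 to 44.3 in homozygous libraries, in the order of the labels. CPM is a count relative to the total of its library after TMM scaling, a correction for composition. Total counts per library were 38564405 to 69360234, and 3 counts, the level taken as the floor, stood for 0.0428 to 0.0777 CPM. Of 73 IDs on 9 lists of tissue markers (muscle, blood, neurons, neural progenitors, epidermis and others), 1 ID, col8a1a on the notochord list, was at 0 in every library.

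Polycomb proteins keep developmental genes silent. In the usual picture, PRC2 methylates histone H3, the chromodomain of a CBX protein binds that mark and brings PRC1 to it, and the RING subunits of PRC1 then ubiquitinate histone H2A. The CBX proteins compete for the same place in PRC1, so a cell's choice of CBX gene sets which form of the complex it has. In mouse embryonic stem cells Cbx7 is the main member, and Cbx2 is among those that replace it on differentiation. Human CBX7 is also known for repressing the CDKN2A locus. No sequence of these genes or proteins was at hand, so none is shown.

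Only 3 of the 7 IDs were measurable in these embryos. cbx2, cbx7a and CBX8 (ENSDARG00000087327) passed the filter on low counts and the other 4 IDs did not. cbx6b and CBX7 (the cbx7b row) had a count of 0 in all 9 libraries. Over the summed libraries this allows a level of up to 0.00585 CPM, if each fragment adds 1 count. Most low counts were even, so a fragment may add more than 1 count and the limit may be higher. cbx6a had 2 counts in heterozygous replicate 2 and 0 elsewhere. The other CBX8 ID (ENSDARG00000098771) had 16 counts in wild-type replicate 2, or 0.251 CPM, and 0 in the other libraries. These limits cover counting error only, and reads that match more than 1 copy of a gene may not have been counted. In bulk RNA, fewer cells that use a gene and less RNA per cell cannot be told apart, here and in all results that follow.

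cbx7a was low but above the floor of 3 counts in wild-type and heterozygous embryos, and much higher in homozygous embryos. In wild-type replicates 1 to 3 it was at 0.725, 2.79 and 1.25 CPM, from 28, 178 and 68 counts. Heterozygous replicates 1 to 3 held 2.41, 4.05 and 2.61 CPM, from 156, 240 and 144 counts. Homozygous replicates 1 to 3 held 44.2, 53.0 and 47.7 CPM, from 3098, 3376 and 2040 counts. All 3 homozygous pools were thus far above the other 6, and heterozygous and wild-type pools overlapped, since wild-type replicate 2 was above heterozygous replicates 1 and 3. Means over 3 pools were 1.59 ± 1.07 CPM (SD) for wild type, 3.02 ± 0.897 for heterozygous and 48.3 ± 4.44 for homozygous embryos.

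**Figure D1:**
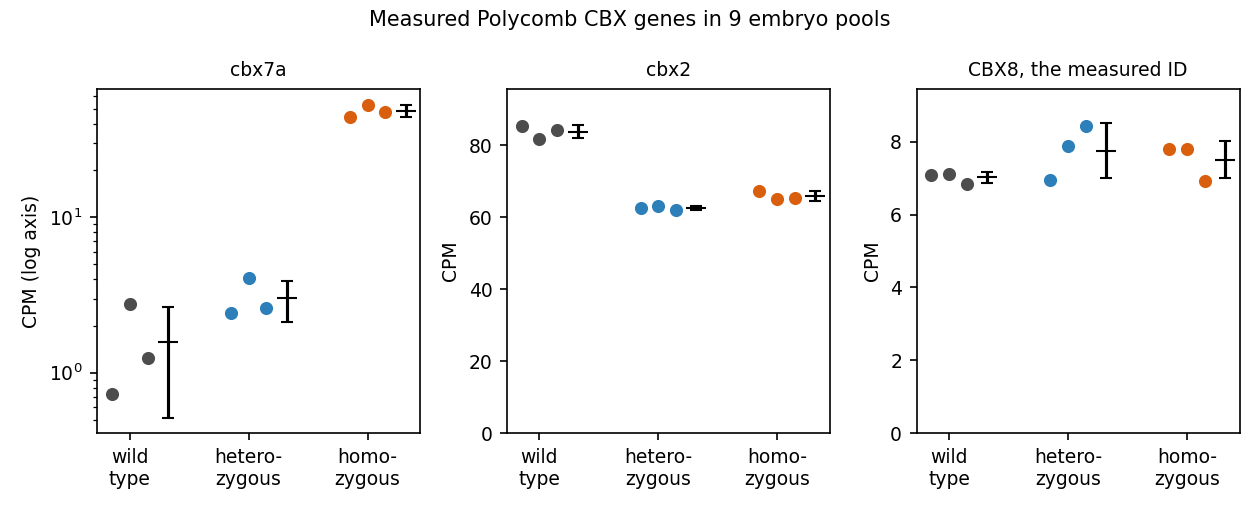
Level of the 3 measured Polycomb CBX genes in each pool, in CPM (log axis for cbx7a, linear axes from 0 for cbx2 and CBX8). Points are pools in the order of replicates 1 to 3 and bars are the mean ± SD over 3 pools. cbx7a is high in the 3 homozygous pools, cbx2 is highest in the 3 wild-type pools, and the CBX8 ID overlaps between all genotypes.

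The fitted change of cbx7a from wild type to homozygous embryos was 28.5-fold (log2 4.83 ± 0.40, SE). It had rank 32 among the rises of 20375 tested genes, and 0.231% of genes had a larger change in either direction. Single wild-type pools weighed on this value in both directions. It was 47.1-fold without wild-type replicate 2, 23.5-fold without replicate 1 and 25.0-fold without replicate 3. Against heterozygous siblings, which shared their crosses with the homozygous embryos, cbx7a was 15.99-fold higher (log2 3.999 ± 0.37), with rank 41 among the rises. The middle gene of all tested moved by an absolute log2 change of 0.28 and 0.25 in these comparisons.

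Between heterozygous and wild-type embryos the log2 change of cbx7a was 0.83 ± 0.45, with a 95% interval of -0.25 to 1.92 (edgeR quasi-likelihood test, adjusted p = 0.225). The change did not pass the test, and the interval held both no change and a large rise. That outcome turned on wild-type replicate 2, the highest wild-type pool: without it the log2 change was 1.56 (edgeR adjusted p = 0.0138). Over the settings tried, the adjusted p ranged from 0.0138 to 0.481. These wild-type pools also entered the rise that chose the set, so neither outcome is separate from that choice. cbx7a was also more variable than genes of its level. The SD of its log2 CPM over wild-type pools was 0.95, where the median of 1760 genes within 0.5 of its log2 level was 0.22 and 97.9% of them had a smaller SD. In heterozygous pools the SD was 0.40, above that of 95.7% of like genes, and in homozygous pools it was 0.13, above 91.7%.

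Markers of many cell types also differed between homozygous and wild-type embryos. All counts here are for homozygous against wild-type embryos, where 23.5% of all tested genes rose and 21.1% fell. The neural progenitor list (10 IDs) summed to 1495 to 1531 CPM in wild type, 1417 to 1500 in heterozygous and 1010 to 1046 in homozygous libraries, and 9 of its 10 genes fell and 1 rose. The neuron list (11 IDs) summed to 1823 to 1868, 1805 to 1894 and 2462 to 2639 CPM for the genotypes as just listed, and 8 of its 11 genes rose. The macrophage and neutrophil list (13 IDs) summed to 34.9 to 48.9, 41.3 to 44.4 and 54.2 to 55.5 CPM, and 4 of its 8 measured genes rose. Most of these 13 IDs share the symbol MFAP4, and 2 of the 8 entries of the list had no match. Its largest member, LCP1, averaged 16.8 CPM in wild-type and 26.7 CPM in homozygous libraries, while the MFAP4 IDs went both ways. On that last list lyz, a neutrophil gene, was at 0 in 8 of 9 libraries and CORO1A in 6, while no progenitor or neuron marker was at 0 in any library. The skeletal muscle list summed to 23147 to 24713 CPM in wild-type and 14691 to 15690 CPM in homozygous libraries, and 6 of its 8 genes fell. The erythroid list went from 3118 to 3306 CPM in wild-type to 2305 to 2387 CPM in homozygous libraries, and all 5 measured genes fell. The endothelium list went from 185 to 198 CPM to 143 to 145 CPM, and all 4 genes fell. The epidermis list summed to 4268 to 4486 CPM and 5100.2 to 5439 CPM, with 2 of 6 genes higher and 2 lower. In heterozygous libraries the muscle, erythroid and epidermis sums were 20083 to 21178, 2570 to 2814 and 5012 to 5154 CPM. These heterozygous sums did not overlap wild type, whereas those of the neural progenitor, neuron, and macrophage and neutrophil lists did. Most of the epidermis sum was krt4, at 3096 CPM on average in wild-type and 3819 CPM in heterozygous libraries. The endothelium sum was 176 to 194 CPM in heterozygous libraries and overlapped wild type. On the notochord list 1 of 5 measured genes rose and 2 fell, and on the lens list 3 of 7 fell. The part of these cell types in the rise of cbx7a was not tested.

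cbx2, one of the vertebrate counterparts of the fly Polycomb gene, went the other way and was lower in both mutant genotypes. Wild-type replicates 1 to 3 held 85.4, 81.7 and 84.2 CPM. Heterozygous replicates held 62.7, 63.0 and 62.0 CPM, and homozygous replicates 67.4, 65.1 and 65.2 CPM. No mutant pool reached the lowest wild-type pool, and every homozygous pool was above every heterozygous pool by a small margin. cbx2 fell by 0.42 ± 0.05 on the log2 scale in heterozygous against wild-type embryos (edgeR adjusted p = 3.83e-06) and by 0.35 ± 0.05 in homozygous against wild-type embryos (edgeR adjusted p = 9.09e-06). Between homozygous and heterozygous siblings its log2 change was 0.08 ± 0.05, with a 95% interval of -0.02 to 0.17 (edgeR adjusted p = 0.209). A difference from wild type was thus present in both mutant genotypes, which came from the same crosses. Mother, clutch and genotype cannot be told apart in it. cbx2 varied less between pools than most genes of its level: 20.1%, 3.47% and 20.3% of such genes had a smaller SD of log2 CPM over wild-type, heterozygous and homozygous pools.

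The measured CBX8 ID (ENSDARG00000087327) did not pass the test in any comparison. Wild-type replicates 1 to 3 held 7.10, 7.13 and 6.83 CPM, heterozygous replicates 6.94, 7.87 and 8.43 CPM, and homozygous replicates 7.79, 7.81 and 6.92 CPM. The pools of the 3 genotypes overlapped. The log2 change was 0.10 ± 0.10 in homozygous against wild type (95% interval -0.11 to 0.31, edgeR adjusted p = 0.436) and 0.14 ± 0.10 in heterozygous against wild type (-0.06 to 0.35, adjusted p = 0.303). Between homozygous and heterozygous embryos it was -0.04 ± 0.10 (-0.25 to 0.16, adjusted p = 0.768). A fall as large as that of cbx2 lay outside both intervals against wild type, and small rises lay inside them.

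**Figure D2:**
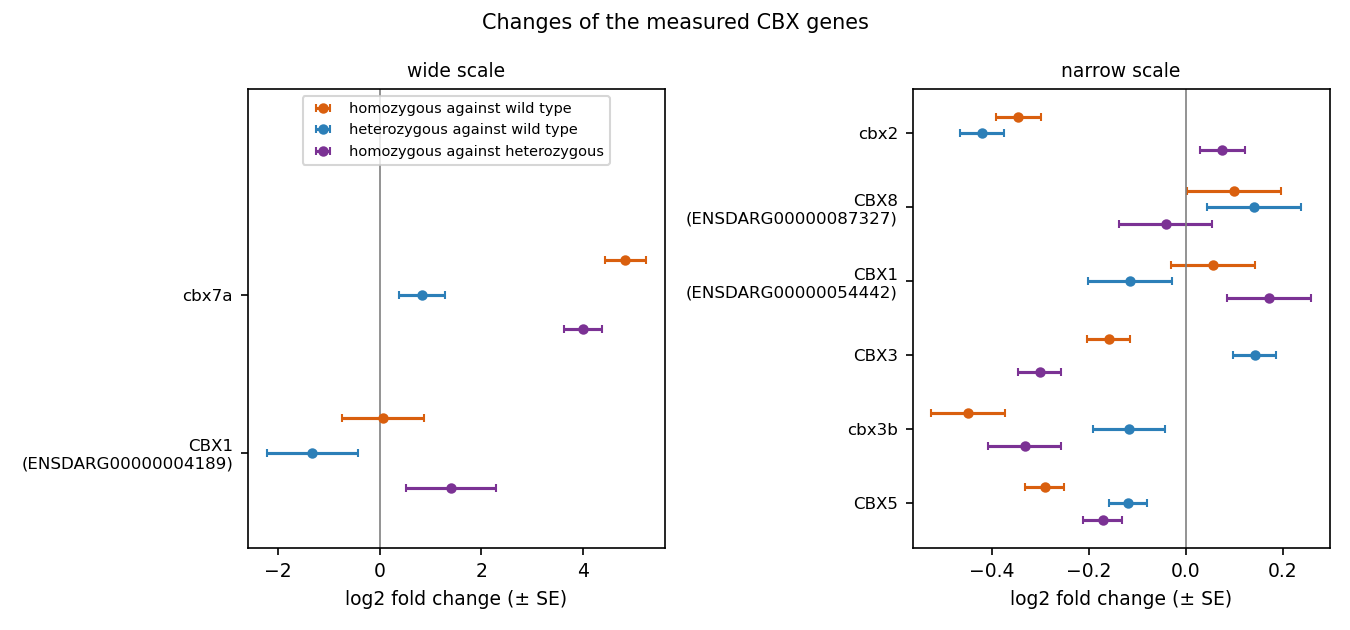
Log2 fold change (± SE) of the measured CBX genes reported here in the 3 comparisons, with cbx7a and the low CBX1 ID on a wide scale at left and the other genes on a narrow scale at right. cbx7a stands at 4.83 and 3.999 in the comparisons with homozygous embryos, whereas cbx2, CBX3, cbx3b and CBX5 lie within 0.5 of 0.

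The rise of cbx7a in homozygous embryos chose the set, so cbx7a is left out of the counts that involve them. From wild type to homozygous embryos cbx2 fell and the CBX8 ID did not pass, where 44.5% of all tested genes were called, 23.5% higher and 21.1% lower. From wild type to heterozygous embryos cbx2 was the 1 called gene of the 3 measured members, and fell. There 29.8% of all genes were called, 15.5% higher and 14.4% lower. cbx7a is counted among these 3 members, although its wild-type values helped to choose the set. Between homozygous and heterozygous embryos neither cbx2 nor the CBX8 ID passed, where 39.8% of all genes were called, 20.4% higher and 19.4% lower. The pools of cbx2 did not overlap in any of these comparisons, and neither did those of 53.9%, 42.7% and 51.2% of all genes in the same order. With 3 measured members, these counts say little about the family. From wild type to homozygous embryos 42.3% of all genes had a larger change than cbx2 and 80.1% a larger change than the CBX8 ID.

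**Figure D3:**
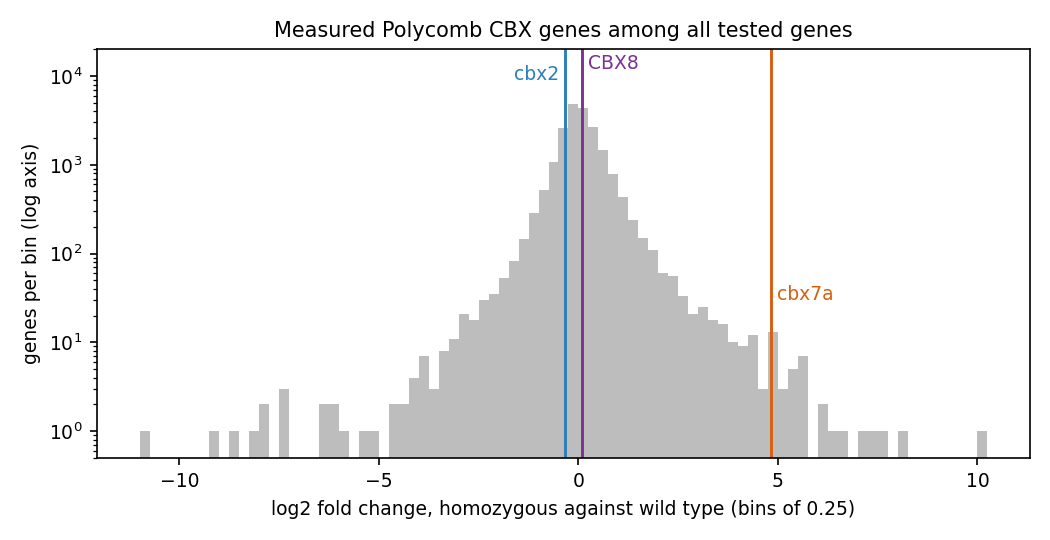
Log2 fold changes of all 20375 tested genes from wild type to homozygous embryos, in bins of 0.25, with the number of genes per bin on a log axis. The vertical lines mark the 3 measured Polycomb CBX genes: cbx2 and CBX8 lie in the central mass and cbx7a at 4.83 in the right tail.

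The HP1 branch of the CBX family binds another methyl mark on histone H3, that of constitutive heterochromatin, and its 5 IDs were all measured. In homozygous against wild-type embryos 3 of them fell and 2 did not pass, where 21.1% of all tested genes fell and 23.5% rose. CBX5, which encodes HP1 alpha, was at 390 ± 7.66, 359 ± 7.01 and 319 ± 0.218 CPM (SD, n = 3), given here and below in the order wild type, heterozygous, homozygous, with no overlap of pools. It changed by -0.29 ± 0.04 in homozygous against wild type (edgeR adjusted p = 1.25e-05) and by -0.17 ± 0.04 in homozygous against heterozygous embryos (adjusted p = 0.00215). Its fall of 0.12 ± 0.04 in heterozygous against wild type (adjusted p = 0.0302) was lost on leaving out heterozygous replicate 1, heterozygous replicate 3 or wild-type replicate 2 (0.0532 to 0.0986). cbx3b changed by -0.45 ± 0.08 in homozygous against wild type (adjusted p = 1.24e-04) and by -0.33 ± 0.08 against heterozygous siblings (adjusted p = 0.00193).

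CBX3, which encodes HP1 gamma, was highest in heterozygous embryos, at 220.1 ± 8.61, 243 ± 7.33 and 197 ± 3.77 CPM. It fell by 0.30 ± 0.04 in homozygous against heterozygous embryos (edgeR adjusted p = 3.63e-05) and by 0.16 ± 0.04 in homozygous against wild type (adjusted p = 0.00776). Its rise in heterozygous against wild type (0.14 ± 0.04, adjusted p = 0.0227) was lost on leaving out any of replicates 1 and 2 of these genotypes (0.062 to 0.101). Of the CBX1 IDs, which encode HP1 beta, ENSDARG00000054442 was at 10.01 to 11.3 CPM on average in each genotype and did not pass in any comparison. ENSDARG00000004189 was at 0.124 to 0.333 CPM on average and its direction changed with the library left out.

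Of 16 measured genes of the PRC1 core list, which holds partners of the CBX proteins, 4 rose, 1 fell and 11 did not pass in homozygous against wild-type embryos. Among all tested genes 23.5% rose and 21.1% fell, so the share of rises was near that background. The list had a median log2 change of -0.04 where the median of all tested genes was 0.02. The count of rises was 2 without wild-type replicate 3, and the 1 fall, that of the RING subunit gene RNF2, was lost on leaving out any of 6 libraries (heterozygous replicate 1, homozygous replicates 2 and 3, and each wild-type replicate). Among polyhomeotic genes, whose products join PRC1 complexes into larger assemblies, phc2b rose from wild type (42.5 ± 1.67 CPM) to homozygous (54.0 ± 3.00 CPM; log2 0.35 ± 0.06, edgeR adjusted p = 1.90e-04). In heterozygous embryos phc2b was at 40.3 ± 2.77 CPM. The other polyhomeotic rises were those of phc2a (0.27 ± 0.09, adjusted p = 0.0181) and phc3 (1.16 ± 0.41, adjusted p = 0.0285, from 0.258 ± 0.140 to 0.604 ± 0.0939 CPM). The call of phc2a was lost without homozygous replicate 1, wild-type replicate 2 or wild-type replicate 3, and that of phc3 without any of 4 libraries (homozygous replicates 2 and 3, wild-type replicates 1 and 3). SFMBT2, an MBT-domain Polycomb gene, rose from 5.10 ± 0.399 to 7.36 ± 0.322 CPM (log2 0.53 ± 0.10, adjusted p = 2.70e-04).

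Variant PRC1 complexes carry RYBP or YAF2 in the place of a CBX protein. Of 17 measured genes, 6 fell, 1 rose and 10 did not pass in homozygous against wild-type embryos (median log2 change -0.11), beside 21.1% of all genes lower and 23.5% higher. RYBP (ENSDARG00000053459) was at 47.9 ± 1.23 CPM in wild-type and 29.0 ± 1.59 CPM in homozygous pools and fell by 0.72 ± 0.08 on the log2 scale (edgeR adjusted p = 5.18e-06), while heterozygous pools held 37.6 to 49.8 CPM. Its paralogue rybpa fell by 0.32 ± 0.06 (adjusted p = 2.46e-04). AUTS2 (ENSDARG00000020946), a gene of neural variant PRC1, was higher in heterozygous (53.6 ± 1.76 CPM) and lower in homozygous embryos (34.9 ± 0.603) than in wild type (45.7 ± 2.17). Its pools did not overlap between genotypes. The other AUTS2 ID (ENSDARG00000056427) did not share this order. It averaged 15.7 CPM in wild-type, 16.7 in heterozygous and 17.8 in homozygous pools, and its pools overlapped. The related gene fbrs rose in both mutant genotypes against wild type, by 0.21 ± 0.04 in homozygous (adjusted p = 9.53e-04) and 0.33 ± 0.04 in heterozygous embryos (adjusted p = 2.84e-05).

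PRC2 places the mark that CBX chromodomains read. Of 12 measured genes, 6 fell, 1 rose and 5 did not pass in homozygous against wild-type embryos (median log2 change -0.17), beside 21.1% of all genes lower and 23.5% higher. The gene that rose was ezh1, the methyltransferase subunit of non-dividing cells in mammals, at 6.36 to 6.73 CPM in wild-type, 6.73 to 7.54 in heterozygous and 14.9 to 15.6 in homozygous pools. The homozygous pools stood above all others (log2 1.23 ± 0.08 against wild type, edgeR adjusted p = 2.44e-09, and 1.102 ± 0.08 against heterozygous embryos, adjusted p = 1.20e-08). The direction was the reverse for EED, the subunit that binds the methyl mark, which had 48.8 ± 1.16 CPM in wild-type and 38.6 ± 1.51 CPM in homozygous pools (log2 -0.34 ± 0.05, adjusted p = 7.13e-05). JARID2, which helps to recruit PRC2, has 2 IDs and both fell in homozygous and in heterozygous embryos. ENSDARG00000062268 went from 15.4 ± 0.327 CPM to 10.4 ± 1.124 in heterozygous (log2 -0.56 ± 0.09, adjusted p = 1.73e-04) and 8.41 ± 0.698 in homozygous embryos (-0.88 ± 0.09, adjusted p = 6.35e-07).

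Of 12 measured PRC2 genes, 3 rose, 2 fell and 7 did not pass in heterozygous against wild-type embryos. Among all tested genes 15.5% rose and 14.4% fell there. EED was among those that did not pass (0.10 ± 0.05, edgeR adjusted p = 0.179). The genes that rose, EZH2, SUZ12 and RBBP4, were at their highest in heterozygous embryos. They lie outside the rule for named genes and were chosen after their values were seen, so their p-values are no support for a pattern. EZH2, the methyltransferase of dividing cells, was at 105 ± 7.16, 144 ± 2.48 and 102 ± 0.760 CPM. It rose by 0.45 ± 0.05 in heterozygous against wild type (edgeR adjusted p = 4.77e-06), and its log2 change was -0.05 ± 0.05 in homozygous against wild type (adjusted p = 0.419). SUZ12 (ENSDARG00000070256) and the histone-binding subunit gene RBBP4 rose by 0.36 ± 0.06 (adjusted p = 2.50e-04) and 0.47 ± 0.04 (adjusted p = 4.77e-07) in the same comparison. Homozygous siblings were below heterozygous embryos for all 3 genes, by 0.46 to 0.50 on the log2 scale. cbx2 and cbx7a did not share this order. Over the 12 PRC2 genes, 9 fell, 1 rose and 2 did not pass in homozygous against heterozygous embryos (median log2 change -0.34). Among all tested genes 19.4% fell and 20.4% rose in that comparison. The count of PRC2 falls was 8 to 9 with a library left out.

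Of 9 measured genes for enzymes that act against Polycomb marks, 2 fell and 7 did not pass in homozygous against wild-type embryos, near the 21.1% of all genes that fell. The demethylase genes KDM6A and kdm6bb were those that fell, by 0.30 ± 0.05 and 0.20 ± 0.05 (edgeR adjusted p = 8.91e-05 and 0.00169). Without wild-type replicate 3 the count of falls was 4. kdm6bb was lowest in heterozygous embryos, at 129 ± 1.30 CPM, with 170.0 ± 8.51 in wild type and 148 ± 3.18 in homozygous embryos.

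**Figure D4:**
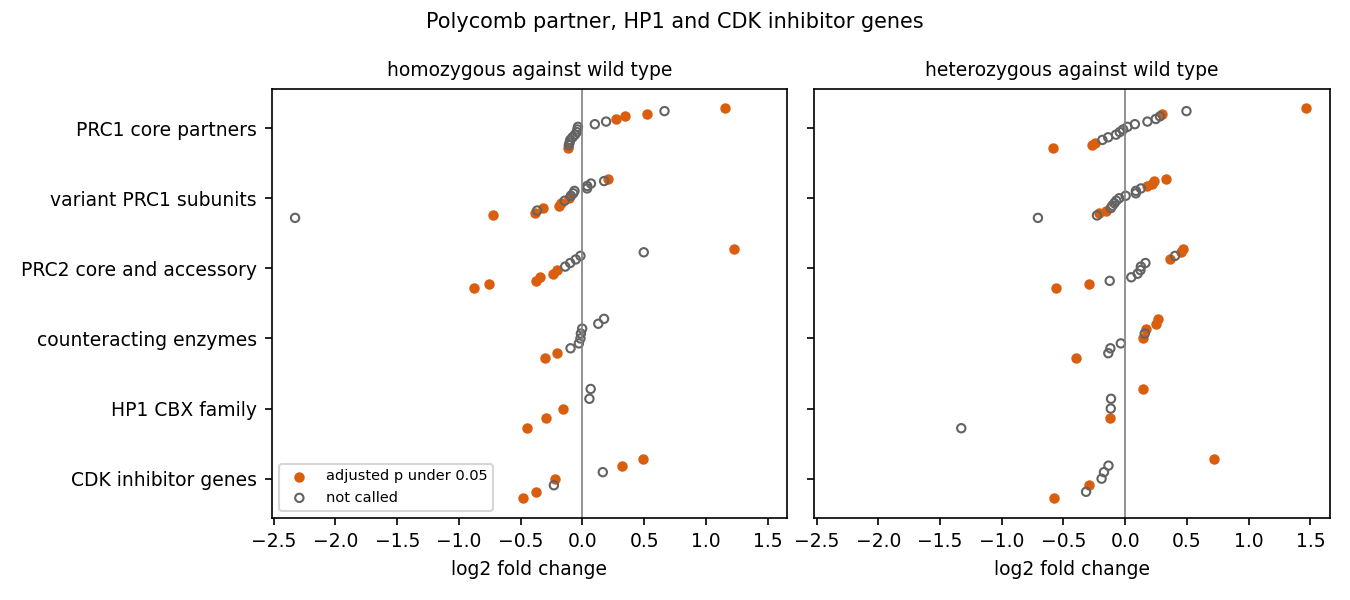
Log2 fold change of each measured gene of 6 lists in homozygous (left) and heterozygous (right) against wild-type embryos. Filled points passed an adjusted p under 0.05 and open points did not. Most genes lie within 0.5 of 0 in both panels, with csnk2a1 (-2.33, open) far to the left and ezh1 at 1.23 to the right of its list in homozygous embryos, and no gene of these lists reaches the 4.83 of cbx7a.

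Among genes that Polycomb complexes are known to repress, CDK inhibitor genes went both ways, while far more Hox genes fell than rose. The textbook target of human CBX7, present in fish as cdkn2a/b, had 0 to 4 counts per library, at or near the floor in every genotype, so no change was detectable at this depth. Of 7 measured CDK inhibitor genes, 2 rose and 3 fell in homozygous against wild-type embryos, beside 23.5% and 21.1% of all genes. cdkn1ca rose from 111 ± 2.33 to 140 ± 6.71 CPM (log2 0.32 ± 0.05, edgeR adjusted p = 1.03e-04), and CDKN1B (ENSDARG00000029018) went from 35.1 ± 1.67 down to 25.1 ± 0.631 CPM, a log2 change of -0.48 ± 0.07 (adjusted p = 3.92e-05). The other rise, of cdkn1a, was lost when any homozygous library, or either of wild-type replicates 2 and 3, was left out. Hox genes are classical Polycomb targets: of 44 measured, 26 fell, 3 rose and 15 did not pass in homozygous against wild type (median log2 change -0.31), where 21.1% of all genes fell and 23.5% rose. In heterozygous against wild-type embryos 15 fell and 29 did not pass (median -0.16), where 14.4% of all genes fell. The 3 rises in homozygous against wild type became 1 to 2 with any 1 library left out. They became 1 when that was 1 of homozygous replicates 2 and 3 and wild-type replicates 1 and 2. Between homozygous and heterozygous siblings 13 of the 44 Hox genes fell, 3 rose and 28 did not pass (median -0.08). There 19.4% of all genes fell and 20.4% rose, and the Hox falls were 7 to 14 with a library left out.

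The genes whose levels followed cbx7a most closely over the 9 libraries were sought among 14083 tested genes that averaged 1 CPM or more and had a proper gene symbol. The 8 highest Pearson correlations of log2 CPM were 0.987 to 0.995, and 6 of these genes are reported here: znf800b, LMNA, tdrd5, SMARCA4 (ENSDARG00000104339), parp4 and MATCAP1. These correlations are descriptions: the points share 3 genotypes and 365 genes had a correlation above 0.95. Leaving out the homozygous pools, these 6 genes had correlations of 0.874 to 0.954 with cbx7a over 6 libraries, in which wild-type replicate 1 was the lowest for cbx7a. The genes were picked on 9 libraries that hold these 6, so these values are no separate check. Ranked by Spearman correlation, 1 of the 8, znf800b, stayed among the highest 8.

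All 6 changed less than cbx7a from wild type to homozygous embryos, by 0.75 to 2.06 on the log2 scale. MATCAP1, a tubulin carboxypeptidase gene, went from 3.49 ± 0.648 to 14.6 ± 1.39 CPM, and parp4 from 13.7 ± 1.78 to 43.3 ± 3.24 CPM. LMNA, the lamin A gene, went from 34.3 ± 2.22 to 58.0 ± 2.05 CPM, and SMARCA4 (ENSDARG00000104339), the ATPase gene of a chromatin remodeller, from 4.60 ± 0.535 to 8.68 ± 0.424 CPM. The gene znf800b went from 9.73 ± 0.851 to 17.0 ± 0.152 CPM. Within the Polycomb lists, ezh1 had the highest correlation with cbx7a (0.958) and RYBP one of the lowest (-0.921).

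**Figure D5:**
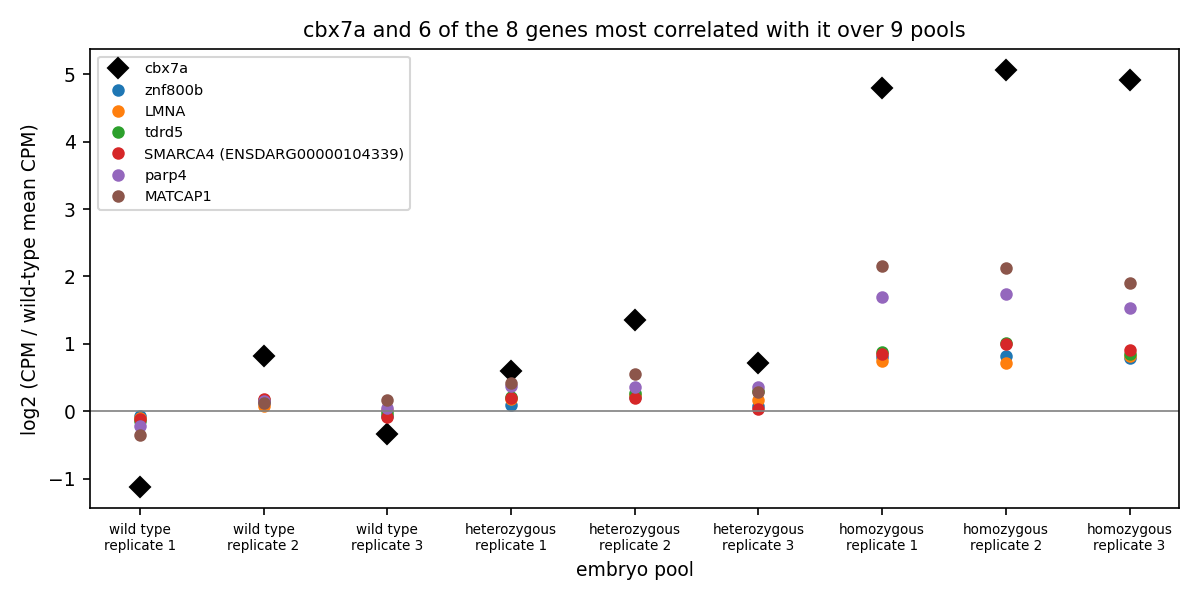
Level of cbx7a (black diamonds) and of 6 of the 8 genes most correlated with it in each of 9 pools, as log2 of CPM over the wild-type mean CPM. cbx7a stands far above the other 6 genes in homozygous pools, and wild-type pools differ most for cbx7a.

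Neighbouring genes were read from the order of protein-coding genes in RefSeq's zebrafish assembly GRCz12tu, which is not the build of the counts. The nearest gene after cbx7a with a unique measured symbol was XPNPEP3, which encodes an aminopeptidase, with 1 gene between them. XPNPEP3 was at 17.9 ± 0.784, 18.7 ± 0.991 and 18.1 ± 1.07 CPM, and its log2 change was 0.01 ± 0.07 from wild type to homozygous (edgeR adjusted p = 0.892). cbx6b, at 0 in every library, lies on the other side of cbx7a with 16 genes between them.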

How the data were processed

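Per the submitters' processing notes, cutadapt 1.18, HISAT2 2.1.0 and featureCounts 1.6.3 were used, with the genome build GRCz11 (danRer11). The annotation and strand setting are not stated in the labels. The deposited values are whole-number counts per gene ID, not normalized. Of the counts between 1 and 19, 96.3% to 97.5% per library were even, as were all 9 cbx7a counts, so counts may stand for fewer fragments than their number.

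All 9 libraries entered 1 fit of edgeR 4.0.16 (R 4.3.3): quasi-likelihood F test, robust, filter by expression (20375 genes kept), TMM scaling, Benjamini-Hochberg adjustment over all tested genes per comparison, with calls at an adjusted p under 0.05. Standard errors are approximate (absolute log2 fold change over the root of F). The log2 CPM values used a prior count of 2. Members were matched by symbol, then without a final a or b. Named genes were all members, up to 4 genes of lowest adjusted p per Polycomb list, the HP1 genes, the 8 closest patterns, and gene neighbours; some of these are not reported here. The members and lists were chosen with earlier results of these data known. Fits were also run on simulated data with far fewer changed genes than were called here. That run does not test them on data with changes this widespread. Alternatives used DESeq2 1.42.0, limma-voom (limma 3.58.1), other scalings and filters, halved counts, a replicate block and each library left out.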

Additional observations from a re-analysis of the deposited data

How the results depend on the processing

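The 9 changes of the measured members (3 genes, 3 comparisons) were recomputed under 19 alternatives, of which 9 left out 1 library. Of 171 values, 168 kept their direction and their side of the threshold. These hold the changes of cbx7a in comparisons with homozygous embryos, which kept theirs in all 19 alternatives. Those changes chose the set, so their steadiness is no support. The number of members called in heterozygous against wild-type embryos, 1, was 1 to 2 with a library left out. It was 2 without wild-type replicate 2, when cbx7a passed. The wild-type values of cbx7a helped to choose the set, so that call is no support. CBX8 (ENSDARG00000087327) in homozygous against heterozygous embryos turned to 0.027 and 0.019 without heterozygous or homozygous replicate 3 (range over left-out libraries -0.117 to 0.027). Replicate numbers were not taken as pairs in the main fit. Deviations of same-numbered pools correlated at -0.0242 to 0.0208 for homozygous and wild type, -0.0171 to -0.00400 for heterozygous and wild type, and 0.0565 to 0.0848 for both mutant genotypes. All were under 0.1, the level asked here of a pairing. Pools of different numbers correlated at -0.0419 to 0.0358, -0.000649 to 0.0130 and -0.0764 to 0.0267 in that order, so between the mutant genotypes every pool correlated best with its own number, a hint from the data and not the design. With the replicate block the calls of cbx2 and the CBX8 ID were the same as without it. The genes most like cbx7a shared 1 of 8 between Pearson and Spearman correlation.

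CBX1 (ENSDARG00000004189) in homozygous against wild type turned to -0.43 with limma-voom, -0.064 with the replicate block, -1.49 without homozygous replicate 2, -0.22 without wild-type replicate 1 and -0.23 without wild-type replicate 2 (range -1.49 to 0.943). Against heterozygous embryos it turned to -0.15 without homozygous replicate 2 (range -0.15 to 2.065). Other reversals, each the end of its range, were of uncalled changes. HOXB13 turned from 0.066 to -0.0048 (heterozygous against wild type, without heterozygous replicate 3, range to 0.1015). HOXB8 turned to 0.0023 (homozygous against heterozygous, without homozygous replicate 2, range from -0.034). The low NPC2 ID turned to 0.12 in that comparison without heterozygous replicate 1 (range from -0.477), and RBBP4 to 0.013 (homozygous against wild type, without wild-type replicate 3, range from -0.043). The cause was not tested. Counts of all genes called were 7783 to 9263, 4835 to 6277 and 6776 to 8482 with a library left out, in the order of the comparisons given for the background (9076, 6079 and 8101 with all). Levels were not compared between genes, since no transcript lengths of the build were at hand.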
